A study of Mus musculus with 13 samples.

Results

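The genes described here are the Wnt ligands, their Frizzled receptors and Lrp5/6 co-receptors, the secreted Sfrp and Dkk modulators, and 5 genes of the nuclear response and its feedback. They were chosen by symbol, as every gene named Wnt, Fzd, Sfrp or Dkk with a number, plus Lrp5, Lrp6, Tcf7, Lef1, Axin2, Rnf43, Znrf3 and Frzb. This gave 45 of the 33433 genes in the table, of which 32 were above 0 in at least 3 libraries and 27 reached 1 FPKM in at least 3 libraries and were tested, among 13118 genes in all. An FPKM value is a fragment count divided by the length of the gene and the depth of the library.

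RNA-seq was done on mesenchymal stromal cells (MSCs), the connective-tissue cells of the marrow that make bone, matrix and signals for blood-forming cells. The cells were sorted from marrow and compact bone of C57BL/6 mice, and the 13 libraries held polyadenylated RNA of 3 healthy, 6 pre-leukemic and 4 recovered MSC samples. Healthy samples came from control mice, pre-leukemic samples from pre-leukemic mice, and the label "recovered" matches the protocol's pre-leukemic mice that were treated with MSCs. The sources used here do not give the leukemia model, its alleles, the age of the mice, the surface markers of the sort or the time and dose of treatment. They also do not say if each replicate was a mouse of its own, so the p-values speak only of the spread among these samples.

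Wnt proteins are secreted lipid-modified ligands that bind Frizzled receptors together with Lrp5 or Lrp6. In the canonical branch this stabilises beta-catenin, which enters the nucleus and acts with Tcf7, Lef1 and related factors, while ligands such as Wnt5a mostly use branches that do not need beta-catenin. Sfrp proteins bind Wnts outside the cell and Dkk proteins such as Dkk2 bind the co-receptors, and in bone the balance of ligands and inhibitors is known to set how much bone osteoblasts form.

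Promoter windows of RefSeq on GRCm38.p6, the 250 bases before each annotated start, were available for 30 of the 45 genes, as 38 windows. Dkk3, Dkk4, Fzd2, Fzd3, Fzd6, Fzd8, Lrp5, Lrp6, Sfrp1, Sfrp4, Wnt10a, Wnt5a, Wnt7b, Wnt8a and Znrf3 had no entry. A TCF/LEF core, searched as CTTTGAA or CTTTGAT on both strands, was present in 3 of the 38 windows, against 7.5% of all 32851. The GC box GGGCGG was in 27 of 38, against 32.7% of all, and the TATA box TATAAA in 6 of 38, against 12.4% of all. The windows held a median of 16.5 CG pairs, against 6 in all promoters. A match to these letters describes the window and does not show a site in use. The 4 windows printed belong to Wnt11 and Wnt5b, the ligands that led the recovered and the healthy libraries, and to Dkk2 and Sfrp2, 2 of the secreted inhibitors. Capitals mark the TCF/LEF core of Wnt11, at position -51 on chr7:98834862-98835111 of the plus strand, which also holds a TATA box at -29, and of Wnt5b, at -71 on chr6:119449387-119449636 of the minus strand, a window before an inner start of the gene. In Dkk2, on chr3:132085042-132085291 of the plus strand, they mark the TATA box at -32. Sfrp2, on chr3:83766071-83766320 of the plus strand, held none of the searched letters. Each window overlapped no annotated exon.
Wnt11: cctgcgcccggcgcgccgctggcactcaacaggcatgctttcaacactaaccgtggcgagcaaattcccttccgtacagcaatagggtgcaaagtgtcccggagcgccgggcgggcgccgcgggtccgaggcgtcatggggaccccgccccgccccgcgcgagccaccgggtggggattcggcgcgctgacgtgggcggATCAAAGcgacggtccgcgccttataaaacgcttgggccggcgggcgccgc
Wnt5b: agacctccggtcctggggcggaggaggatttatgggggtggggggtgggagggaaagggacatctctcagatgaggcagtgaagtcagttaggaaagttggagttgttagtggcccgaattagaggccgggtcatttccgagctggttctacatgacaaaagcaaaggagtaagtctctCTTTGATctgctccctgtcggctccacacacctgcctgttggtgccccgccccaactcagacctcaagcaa
Dkk2: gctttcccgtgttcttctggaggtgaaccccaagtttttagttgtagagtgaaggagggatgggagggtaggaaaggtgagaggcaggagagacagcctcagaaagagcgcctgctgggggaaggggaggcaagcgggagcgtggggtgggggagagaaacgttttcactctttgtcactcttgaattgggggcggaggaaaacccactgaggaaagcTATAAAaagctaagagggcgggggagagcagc
Sfrp2: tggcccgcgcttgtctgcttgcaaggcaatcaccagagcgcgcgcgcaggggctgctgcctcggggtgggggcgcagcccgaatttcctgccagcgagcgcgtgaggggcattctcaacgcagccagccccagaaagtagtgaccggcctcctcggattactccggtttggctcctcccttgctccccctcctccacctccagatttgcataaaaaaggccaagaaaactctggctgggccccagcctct

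In the libraries as a whole, 1 read on 1 kb was worth an estimated 0.311 to 0.378 FPKM (healthy libraries), 0.165 to 0.242 (pre-leukemic) or 0.345 to 0.633 (recovered), so values under about 0.494 to 1.9 FPKM rest on fewer than 3 reads on a gene of that length. The difference between healthy 1 and healthy 3 was about that of sampling noise (chi-square per gene 1.26 over 340 genes with 10 to 100 estimated reads and 1.23 over 171 genes with more, at least 11.8 and 23.7 in the other 23 pairs). They were therefore averaged and counted as 1 sample, which leaves 2 healthy, 6 pre-leukemic and 4 recovered samples. An exact 0 can be a failed estimate, since Tbp, a transcription factor of every cell, is listed at 0 in healthy 2 and recovered 1 and reached 26.5 FPKM elsewhere. In every group 15 of 15 stromal identity markers were above 0 in some library, though not in each, as Lepr was listed at 0 in pre-leukemic 3 and 4. Their summed FPKM was 4473.9 to 5413.2 in healthy libraries, 126.0 to 361.0 in pre-leukemic ones and 2371.3 to 3301.9 in recovered ones. Pan-leukocyte markers ran the other way, at 142.0 to 170.3, 2918.3 to 3474.5 and 81.5 to 287.6 summed FPKM (12 of 12 above 0 in some library of each group). The 11 osteoblast markers summed to 3998.0 to 5139.5 FPKM (healthy), 45.3 to 113.9 (pre-leukemic) and 810.9 to 1533.2 (recovered). In the pre-leukemic group 8 of 11 were above 0 in some library, with Sp7, Bglap and Dmp1 listed at 0 in all. Runx2 among them read 13.1 to 33.3 FPKM in healthy libraries and 15.2 to 49.3 in pre-leukemic ones. Immunoglobulin transcripts made up 54.9 to 80.5% of all FPKM in pre-leukemic libraries and no more than 0.134% elsewhere. The 7 erythroid markers summed to 35.4 to 49.7 FPKM (healthy), 0 to 6.51 (pre-leukemic) and 1650.3 to 2637.7 (recovered). Of 5 tested, 4 were higher in recovered than in healthy libraries (limma, adjusted p under 0.05). The 8 chondrocyte markers summed to 3618.8 to 3873.1 FPKM (healthy), at most 6.73 (pre-leukemic) and 696.0 to 1104.8 (recovered). Of 7 tested, 2 were lower in recovered than in healthy libraries. The part of these differences in the results that follow was not tested, and in such bulk samples fewer cells of a type and less RNA per cell cannot be told apart.

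In pre-leukemic libraries most of the measured ligands, receptors and inhibitors were low, while Tcf7, Wnt10a and, at low values, Rnf43 were higher than in healthy ones. Recovered libraries differed from pre-leukemic ones in the opposite direction for most of these genes. Of the 27 genes tested, 16 were lower and 3 higher in pre-leukemic than in healthy libraries, with a median log2 change of -2.27 (limma, Benjamini-Hochberg adjusted p under 0.05). Among all genes tested, 13.1% were lower and 14.2% higher (27.3% in either direction), with a median of 0.2. In recovered against pre-leukemic libraries 15 were higher and 4 lower, with a median of 1.59, where 14.8% of all genes were higher and 25.1% lower (40.0% in either direction), with a median of -0.41. In recovered against healthy libraries 3 were lower and 0 higher, with 5 at an unadjusted p under 0.05 and a median of -0.41. There, 1.99% of all genes were lower and 0.518% higher (2.51% in either direction), with a median of -0.08. Without healthy 2, 9 genes were lower and 0 higher in pre-leukemic than in healthy libraries and 1 was lower in recovered than in healthy ones, and on the TPM scale 0 were higher in pre-leukemic libraries. These 3 comparisons share their groups, so a level that stands apart in the pre-leukemic libraries enters the first 2 with opposite signs. Where a group counts if any of its libraries reached 1 FPKM, the filter let 17 of the 27 genes in through all 3 groups. It let Rnf43 in through pre-leukemic and Lrp5 through recovered libraries alone, and 8 through a pair of groups. Rnf43 is among the 3 higher and the 4 lower genes and Lrp5 among the 15 higher ones, and as the filter admitted each through the group where it was high, its call carries no weight. For other genes a group counted through a single library. This was pre-leukemic 5 for Wnt5b (1.04 FPKM), Fzd2 (1.11), Wnt16 (1.25), Fzd9 (1.38) and Fzd7 (1.93). For Fzd8 (2.05) it was pre-leukemic 4, and for Wnt5a (1.48) and Fzd6 (1.02) pre-leukemic 6. It was healthy 1 for Wnt10a (1.64), healthy 2 for Znrf3 (2.44), recovered 3 for Tcf7 (9.49) and recovered 4 for Wnt5b (16.0). Fzd1, Frzb and Wnt4 reached 1 FPKM in healthy and recovered libraries only. All of these genes met the filter mainly through groups where they were high, so any calls of them carry less weight. The counts are not a sample of the whole family.

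**Figure D1:**
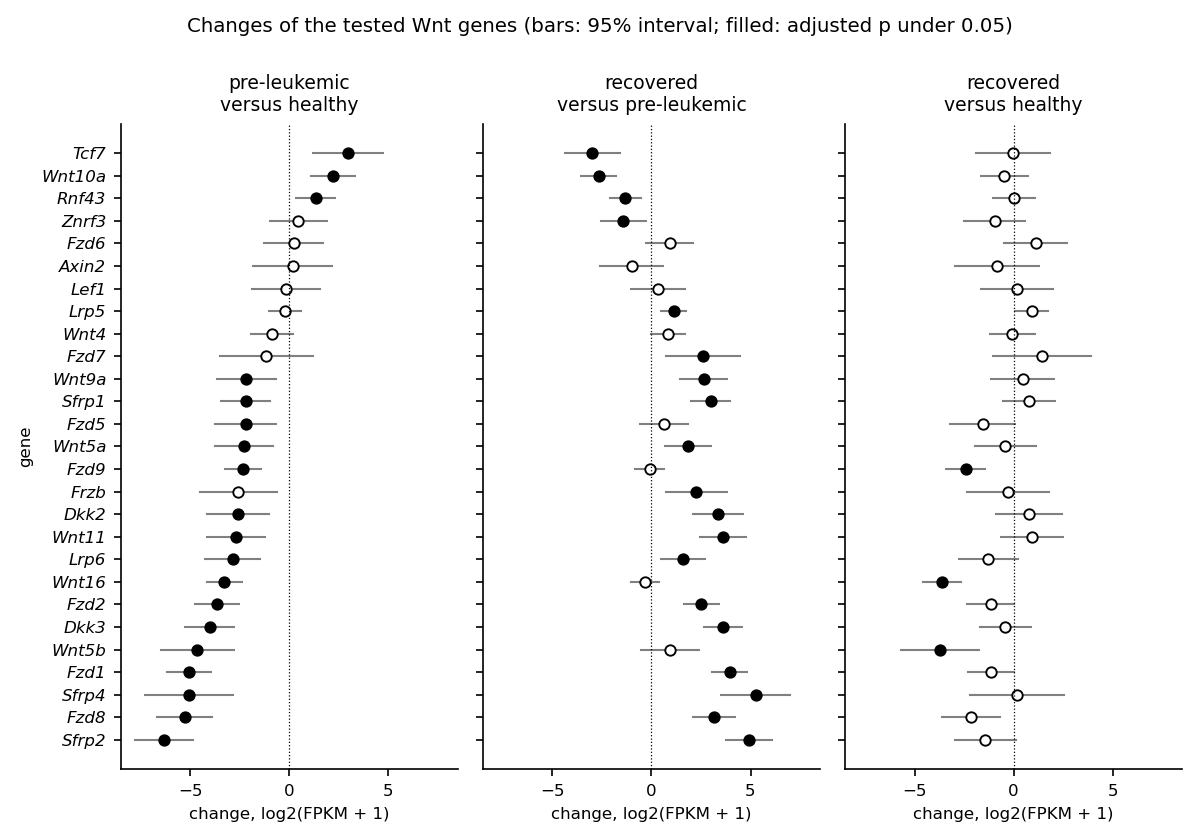
Log2 changes of the tested genes in each comparison on the log2(FPKM + 1) scale, with 95% intervals; filled points have an adjusted p under 0.05 by limma. Sfrp2 has the most negative change from healthy to pre-leukemic, at -6.33, and 3 genes are filled in recovered against healthy.

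Ligands came first in the order of the pathway. Of 19 Wnt genes, 8 were listed at 0 in all 13 libraries, and Wnt6, Wnt7b and Wnt10b were above 0 in fewer than 3. Their summed level was 55.4 to 73.7 FPKM in healthy libraries, 4.94 to 13.5 in pre-leukemic ones and 25.8 to 74.1 in recovered ones, and the leading ligand differed between the groups. Wnt5b held 36.5 to 48.1% of the ligand sum in healthy libraries, Wnt10a 34.8 to 100% in pre-leukemic ones, and Wnt11 23.6 to 60.0% in recovered ones, where Wnt9a reached 64.6% in recovered 2. Wnt11 had held 14.1 to 17.1% in healthy libraries. Changes below are on the log2(FPKM + 1) scale ± SE with limma's adjusted p, and this scale understates the change of genes with low values.

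Wnt5b (chr6:119432531-119544347, GRCm38), a ligand of the branches without beta-catenin, read 20.6, 35.5 and 23.3 FPKM in healthy 1 to 3, between 0 and 1.04 with a median of 0 in pre-leukemic, and 0.366, 0, 0 and 16.0 in recovered 1 to 4. Healthy libraries lay above all others, and recovered 4 alone came near them. The change from healthy to pre-leukemic was -4.64 ± 0.86 (adjusted p = 0.00113), and it was called under every alternative. From healthy to recovered it was -3.72 ± 0.92 (adjusted p = 0.0475), a call lost in 17 of 23 alternatives, with adjusted p from 0.000344 without recovered 4 to 0.451 with only the 2 groups in the fit. Leaving out healthy 2 gave 0.409, and leaving out healthy 3, any 1 pre-leukemic library or recovered 1, 2 or 3 gave 0.0502 to 0.0858.

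Wnt16, a ligand known to protect cortical bone, read 9.24, 14.7 and 7.7 FPKM in healthy libraries, 0 to 1.25 with a median of 0.148 in pre-leukemic ones, and was listed at 0 in all 4 recovered libraries. It was lower in pre-leukemic than in healthy libraries by -3.28 ± 0.42 (adjusted p = 5.21e-05). Wnt16 was also lower in recovered than in healthy libraries (adjusted p = 0.000706, range over alternatives 4.53e-05 to 0.0197), and of the 3 calls between these groups it was the one present under every alternative. Apart from pre-leukemic 5, only healthy libraries reached 1 FPKM of Wnt16. The filter thus admitted it mainly through the group where it was high, and both calls carry less weight. Recovered and pre-leukemic libraries overlapped (adjusted p = 0.456).

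Wnt11, a ligand of cell movement and polarity, read 7.97, 11.3 and 9.46 FPKM in healthy libraries, 0 to 3.42 with a median of 0.292 in pre-leukemic ones, and 15.5, 10.4, 26.2 and 36.9 in recovered 1 to 4. The recovered range started below the highest healthy value and reached well above it. Wnt11 rose by 3.62 ± 0.54 from pre-leukemic to recovered (adjusted p = 0.000112, at most 0.00104 over the alternatives), and the change against healthy was 0.94 (95% interval -0.62 to 2.49, adjusted p = 0.583). Its fall from healthy to pre-leukemic, -2.68 ± 0.68 (adjusted p = 0.00926), reached 0.11 without healthy 2.

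Wnt9a, a ligand known from joint formation, read 10.5, 5.72 and 7.95 FPKM in healthy libraries, 0 to 2.19 with a median of 0.923 in pre-leukemic ones, and 6.91, 28.6, 15.5 and 3.38 in recovered ones. Each recovered library exceeded each pre-leukemic one, with a rise of 2.63 ± 0.55 (adjusted p = 0.00175). The fall from healthy to pre-leukemic of -2.17 ± 0.70 (adjusted p = 0.0322, 0.00256 to 0.119 over the alternatives) was lost without healthy 2 (0.119), pre-leukemic 2 (0.0595), pre-leukemic 3 (0.0582) or pre-leukemic 5 (0.0551). Wnt5a, the main ligand of the non-canonical branch, read 4.36, 6.2 and 4.58 FPKM in healthy libraries, 0 to 1.48 with a median of 0 in pre-leukemic ones, and 0.942, 3.45, 2.54 and 14.8 in recovered ones. It fell by -2.27 ± 0.68 (adjusted p = 0.0234, 0.184 without healthy 2) and rose by 1.85 ± 0.54 in recovered libraries (adjusted p = 0.0143), although recovered 1 lay below the highest pre-leukemic library. Recovered 4 had the highest Wnt5a, Wnt5b and Wnt11 of its group and the lowest Wnt9a.

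Wnt10a, a canonical ligand known from skin and teeth and from the choice between fat and bone, was the one ligand that was higher in pre-leukemic libraries. It read 1.64, 0 and 0.706 FPKM in healthy libraries, 2.31 to 10.1 with a median of 5.88 in pre-leukemic ones, and 0, 0, 0.257 and 0 in recovered ones. All 6 pre-leukemic libraries lay above all others. The rise of 2.19 ± 0.52 (adjusted p = 0.00625, 0.00207 to 0.129 over the alternatives) was lost without healthy 2 (0.129) and on the TPM scale (0.0977), while the fall of -2.66 ± 0.41 to recovered libraries (adjusted p = 0.000154) was called under every alternative. Outside the pre-leukemic group only healthy 1 reached 1 FPKM. The filter thus admitted Wnt10a mainly through the group where it was high, and both calls carry less weight. The leukocyte markers, T and NK, plasma cell, neutrophil and monocyte lists included, were also higher in pre-leukemic libraries. Of 10 tested B cell and precursor markers 4 were called higher and 4 lower. The part of any of these in the Wnt10a level was not tested. Wnt4 stayed at 0.264 to 2.1, 0 to 0.146 and 0 to 3.05 FPKM in the 3 groups, with no call. Wnt2 was listed at 0 in all healthy libraries and was 0 to 1.43 FPKM in pre-leukemic and 0 to 1.36 in recovered ones.

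**Figure D2:**
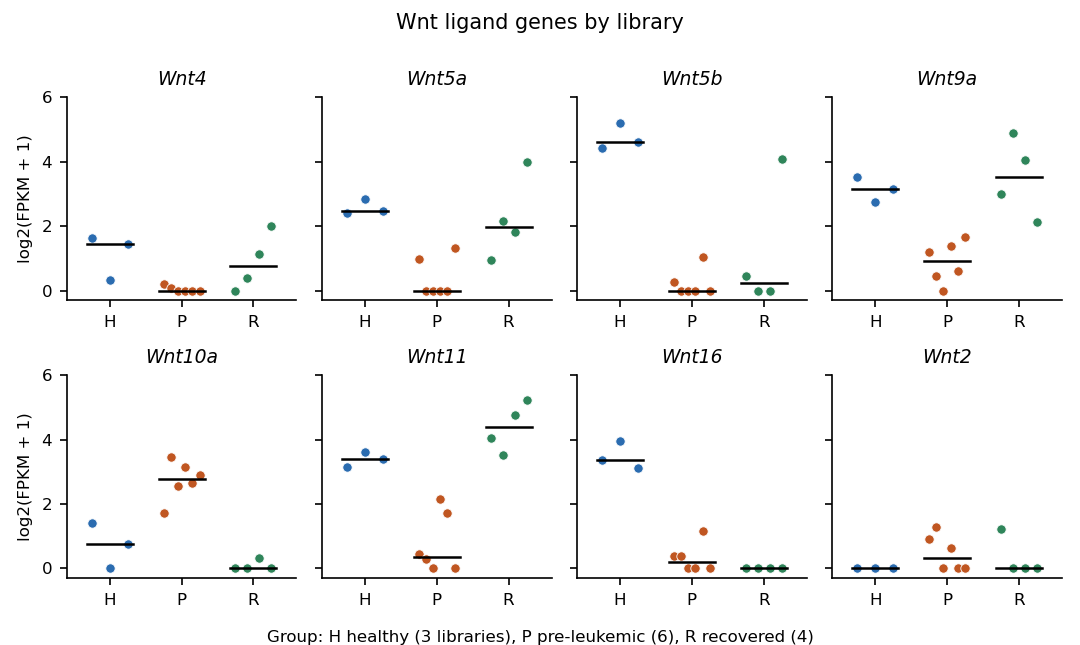
Level of the 8 described ligands as log2(FPKM + 1) in each library; H, P and R are healthy, pre-leukemic and recovered, points are libraries and lines are group medians. Wnt5b and Wnt16 are high in healthy libraries only, apart from Wnt5b in recovered 4 at 16.0 FPKM, and Wnt10a is high in pre-leukemic libraries.

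Frizzled receptors, the membrane proteins that bind Wnts, summed to 130.9 to 147.7 FPKM in healthy libraries, 1.5 to 6.73 in pre-leukemic ones and 46.0 to 102.2 in recovered ones. Fzd8 and Fzd1 led in healthy libraries, with 37.6 to 46.1% and 34.4 to 36.5% of the sum. Of 7 receptors tested, 5 fell from healthy to pre-leukemic and 4 rose from pre-leukemic to recovered. All 10 Frizzled genes were above 0 in at least 3 libraries.

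Fzd1 (chr5:4753839-4758035, GRCm38) read 51.6, 45.0 and 53.4 FPKM in healthy libraries, 0 to 0.93 with a median of 0.544 in pre-leukemic ones, and 30.6, 11.6, 23.9 and 25.2 in recovered ones. The 3 groups did not overlap, and recovered libraries lay between the others. Fzd1 changed by -5.07 ± 0.51 from healthy to pre-leukemic (adjusted p = 7.41e-06) and by 3.94 ± 0.40 from pre-leukemic to recovered (adjusted p = 3.68e-06), and both calls were made under every alternative. Fzd1 met the filter through healthy and recovered libraries alone, the groups where it was high, so both calls carry less weight. Against healthy, the recovered change was -1.14 (95% interval -2.29 to 0.02, adjusted p = 0.315).

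Fzd8, the other leading receptor, read 58.8, 60.3 and 55.0 FPKM in healthy libraries, 0 to 2.05 with a median of 0.482 in pre-leukemic ones, and 7.53, 21.6, 25.6 and 5.59 in recovered ones. The groups again did not overlap. It changed by -5.29 ± 0.64 (adjusted p = 3.52e-05) and then by 3.15 ± 0.50 (adjusted p = 0.000202). The recovered level was -2.14 ± 0.68 against healthy (95% interval -3.59 to -0.69), which did not pass after adjustment (adjusted p = 0.124, 0.0391 to 0.527 over the alternatives). Fzd2 read 18.0, 11.7 and 18.1 FPKM in healthy, 0 to 1.11 with a median of 0.0929 in pre-leukemic, and 6.4, 4.19, 3.95 and 11.8 in recovered libraries. Its changes were -3.66 ± 0.52 (adjusted p = 0.000133) and 2.52 ± 0.41 (adjusted p = 0.000238).

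Fzd9, a receptor known to act in osteoblasts, stayed low in recovered libraries. It read 3.83, 6.31 and 4.58 FPKM in healthy libraries, 0 to 1.38 with a median of 0 in pre-leukemic ones, and 0, 0.376, 0.277 and 0 in recovered ones. The healthy libraries stood apart from both other groups, which overlapped. Fzd9 changed by -2.33 ± 0.43 to pre-leukemic (adjusted p = 0.00102). Recovered libraries were lower than healthy by -2.42 ± 0.45 (adjusted p = 0.0124, 0.000891 to 0.108 over the alternatives), a call lost without healthy 2 (0.108), with quantile normalization (0.055) and with a pseudocount of 0.1 (0.0852). Apart from pre-leukemic 5, only healthy libraries reached 1 FPKM of Fzd9, so both calls carry less weight. Whether the recovered change of Fzd9 differs from that of Fzd1 or Fzd8 was not tested.

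Fzd5 read 5.81, 7.64 and 5.26 FPKM in healthy libraries, 0 to 1.53 with a median of 0.581 in pre-leukemic ones, and 5.61, 4.82, 0 and 0.0979 in recovered ones, which split into a pair near healthy and a pair near 0. Its fall of -2.21 ± 0.72 (adjusted p = 0.0341, 0.00271 to 0.228 over the alternatives) was lost in 6 alternatives, among them those without healthy 2 (0.228), pre-leukemic 2 (0.0592), pre-leukemic 4 (0.0583) and pre-leukemic 5 (0.0569). Fzd7, a receptor of stem and progenitor cells, read 7.88, 0 and 8.3 FPKM in healthy libraries, 0 to 1.93 with a median of 0.192 in pre-leukemic ones, and 7.85, 0, 42.5 and 10.2 in recovered ones. Its rise of 2.6 ± 0.86 from pre-leukemic to recovered (adjusted p = 0.0276, 0.00144 to 0.0948 over the alternatives) was lost in 8 alternatives: 0.0948 without recovered 3, 0.0638 without recovered 4, 0.0564 without recovered 1, 0.0501 to 0.0513 without pre-leukemic 1, 3 or 6, 0.0747 with a pseudocount of 0.1 and 0.0619 with no filter. Fzd6 was 0 to 0.373, 0 to 1.02 and 0 to 7.4 FPKM in the 3 groups, with no call. Fzd3 was at most 0.993 FPKM in any library and Fzd4 at most 0.648 outside recovered 3, where it was 5.92. Both were listed at 0 in all pre-leukemic libraries. Fzd10 was at most 0.348 FPKM.

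Of the co-receptors, Lrp6 fell from healthy to pre-leukemic and rose from pre-leukemic to recovered libraries. Lrp6, which binds Wnt together with Frizzled, read 13, 19.8 and 10.8 FPKM in healthy libraries, 0.334 to 1.9 with a median of 1.42 in pre-leukemic ones, and 7.83, 17.8, 1.76 and 3.61 in recovered ones. The means were 15.8 ± 5.58 (SD, n = 2), 1.32 ± 0.545 (n = 6) and 7.75 ± 7.17 FPKM (n = 4). Its fall of -2.86 ± 0.65 (adjusted p = 0.00476) reached 0.0862 without healthy 2. Its rise of 1.59 ± 0.52 in recovered libraries (adjusted p = 0.0248, 0.0012 to 0.0804 over the alternatives) was lost without pre-leukemic 6 (0.052), recovered 1 (0.0573) or recovered 2 (0.0804). Lrp5, the co-receptor whose loss causes low bone mass, was low everywhere, at 0.235, 0.122 and 0.243 FPKM in healthy, 0 to 0.0784 with a median of 0 in pre-leukemic, and 1.07, 1.5, 2.43 and 0.36 in recovered libraries. Recovered libraries were all above the others, but Lrp5 passed the filter on low values through recovered libraries alone, so this is a description with no test.

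**Figure D3:**
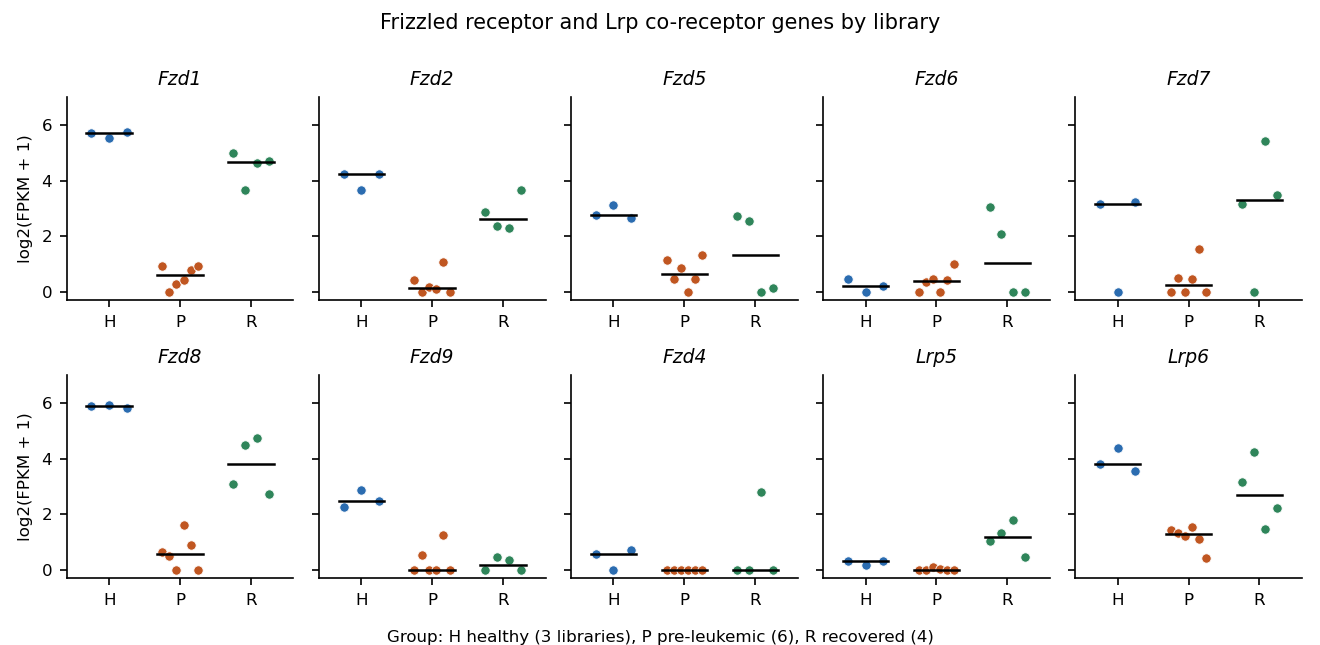
Level of Frizzled receptors and co-receptors as log2(FPKM + 1) in each library, with groups H (healthy), P (pre-leukemic) and R (recovered), points for libraries and lines for medians. Fzd1 and Fzd8 separate the 3 groups, and Fzd9 is near 0 in both pre-leukemic and recovered libraries.

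Secreted inhibitors had a larger sum than ligands or Frizzled receptors in every healthy and recovered library, though not in pre-leukemic 2 and 3, at 828.5 to 864.3 FPKM in healthy libraries, 3.69 to 75.7 in pre-leukemic ones and 652.5 to 920.8 in recovered ones. All 4 tested Sfrp and Frzb genes and both tested Dkk genes rose from pre-leukemic to recovered libraries, and 5 of these 6 had fallen from healthy to pre-leukemic. Sfrp5 stayed at or below 0.374 FPKM, Dkk1 at or below 0.144, and Dkk4 was listed at 0 in all libraries.

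Sfrp4 (chr13:19623104-19632994, GRCm38), a Wnt-binding protein whose loss thins cortical bone, was the highest of all 45 genes in every healthy and recovered library, with Tcf7 above it in pre-leukemic 1, 2 and 3. It read 509.2, 537.0 and 501.4 FPKM in healthy libraries, 1.09 to 57.9 with a median of 24.0 in pre-leukemic ones, and 691.0, 624.0, 452.7 and 608.7 in recovered ones. The means were 521.2 ± 22.4 (SD, n = 2), 27.5 ± 25.3 (n = 6) and 594.1 ± 100.8 FPKM (n = 4). Recovered libraries lay on both sides of the healthy ones. Sfrp4 changed by -5.08 ± 1.04 (adjusted p = 0.0022) and then by 5.25 ± 0.82 (adjusted p = 0.000166). Against healthy the recovered change was 0.17 (95% interval -2.19 to 2.53). Within the pre-leukemic group the order of Sfrp4 matched that of the summed stromal markers only in part. Pre-leukemic 2 and 3 were lowest in both (2.58 and 1.09 FPKM of Sfrp4, 126.0 and 158.7 of markers), but pre-leukemic 1 had the highest marker sum, 361.0, with 15.2 FPKM of Sfrp4, below pre-leukemic 4, 5 and 6. Of that sum, Cxcl12 alone gave 123.6 FPKM, against 6.75 to 47.6 in the other pre-leukemic libraries. The part of the stromal share in the Sfrp4 level was not tested.

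Sfrp2 (chr3:83766321-83774316, GRCm38), a close relative made by marrow stroma, read 257.8, 207.1 and 278.2 FPKM in healthy libraries, 0.353 to 6.23 with a median of 1.81 in pre-leukemic ones, and 144.3, 123.6, 52.8 and 61.2 in recovered ones. The means were 237.5 ± 43.0 (SD, n = 2), 2.62 ± 2.49 (n = 6) and 95.5 ± 45.4 FPKM (n = 4). Every recovered library lay above every pre-leukemic and below every healthy one. Sfrp2 changed by -6.33 ± 0.68 (adjusted p = 1.27e-05) and by 4.91 ± 0.53 (adjusted p = 6.42e-06), both under every alternative. Against healthy the recovered change was -1.42 (95% interval -2.96 to 0.11, adjusted p = 0.351). Sfrp2 thus made up 25 to 32.2% of the inhibitor sum in healthy and 8.09 to 15.7% in recovered libraries, while Sfrp4 made up 58.0 to 64.8% and 69.4 to 82.4%.

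Sfrp1 read 6.04, 7.92 and 6.51 FPKM in healthy libraries, 0 to 3.15 with a median of 0.651 in pre-leukemic ones, and 13.9, 10.5, 12.8 and 14.2 in recovered ones. All recovered libraries exceeded all healthy ones, though the change of 0.77 (95% interval -0.55 to 2.09) did not pass (adjusted p = 0.599). The fall of -2.21 ± 0.58 (adjusted p = 0.0112) reached 0.111 without healthy 2, and the rise to recovered was 2.98 ± 0.46 (adjusted p = 0.00015). Frzb, a Wnt-binding protein of cartilage, read 4.5, 6.05 and 3.49 FPKM in healthy libraries, was listed at 0 in all pre-leukemic ones, and read 0, 0.943, 28.7 and 8.37 in recovered ones. Its adjusted p was 0.0501 from healthy to pre-leukemic, with 12 of 23 alternatives passing (6.19e-05 to 0.294), among them those without healthy 3 (0.0441), recovered 1 (0.0205), recovered 2 (0.0432), recovered 3 (0.00795) or recovered 4 (0.0486). It was 0.0222 from pre-leukemic to recovered (0.00249 to 0.0662), lost without recovered 3 (0.0593) or recovered 4 (0.0662). Frzb met the filter through healthy and recovered libraries alone, the groups where it was high, so both results carry less weight.

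Dkk3, a secreted protein whose action on Wnt depends on the cell, read 62.2, 51.0 and 57.7 FPKM in healthy libraries, 0.955 to 5.2 with a median of 2.34 in pre-leukemic ones, and 39.7, 56.8, 65.7 and 19.3 in recovered ones. The means were 55.5 ± 6.32 (SD, n = 2), 2.76 ± 1.67 (n = 6) and 45.4 ± 20.5 FPKM (n = 4). Dkk3 changed by -4.03 ± 0.58 (adjusted p = 0.000142) and by 3.61 ± 0.46 (adjusted p = 2.55e-05), and recovered libraries overlapped healthy ones. Dkk2, which binds Lrp5 and Lrp6, read 16.9, 19.4 and 16.4 FPKM in healthy libraries, 0 to 7.39 with a median of 2.45 in pre-leukemic ones, and 31.9, 28.2, 39.8 and 26.7 in recovered ones. Every recovered library lay above every healthy one, with a change of 0.77 (95% interval -0.91 to 2.44) that did not pass (adjusted p = 0.702). The rise from pre-leukemic was 3.37 ± 0.58 (adjusted p = 0.000381). The fall from healthy of -2.6 ± 0.74 (adjusted p = 0.0168, 0.000372 to 0.148 over the alternatives) was lost without healthy 2 (0.148) and with a pseudocount of 0.1 (0.0593).

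**Figure D4:**
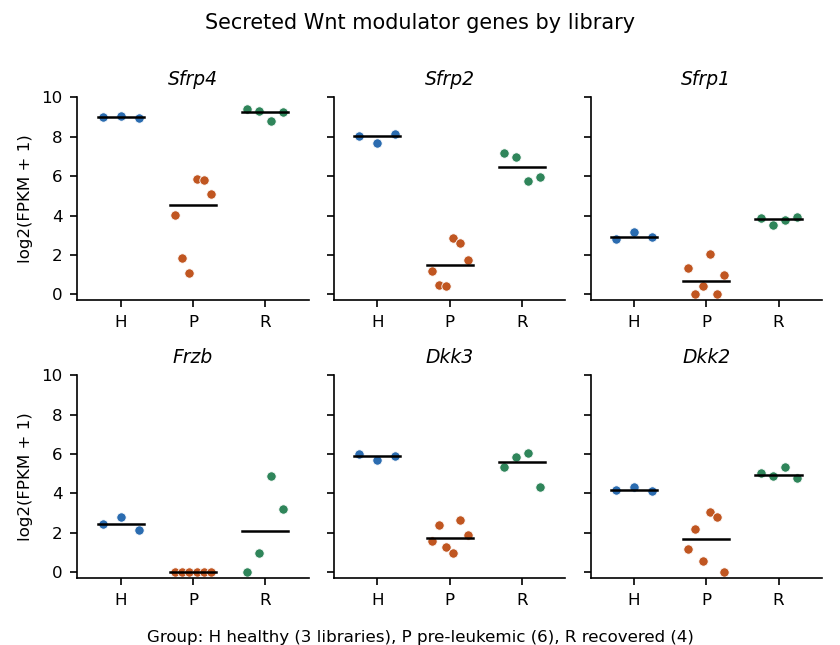
Level of the 6 tested secreted inhibitors as log2(FPKM + 1) in each library, with groups H (healthy), P (pre-leukemic) and R (recovered), points for libraries and lines for medians. Pre-leukemic libraries lie below both other groups for Sfrp4, Sfrp2, Sfrp1, Dkk3 and Dkk2, and recovered Sfrp2 lies between.

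Among the 5 chosen nuclear factor and feedback genes, Tcf7 rose from healthy to pre-leukemic libraries and none fell. In the other lists given below, 6 of 13 nuclear factors fell and 1 rose. Of 12 tested target and feedback genes there, 9 fell and 0 rose. Tcf7 (chr11:52252371-52283014, GRCm38), the factor best known from T cell development, read 1.9, 0.153 and 1.97 FPKM in healthy libraries, 8.65 to 19.4 with a median of 13.4 in pre-leukemic ones, and 0, 0, 9.49 and 0 in recovered ones. Pre-leukemic libraries were all above healthy ones, and recovered 3 was the one library outside them above 1.97. Tcf7 changed by 2.95 ± 0.82 (adjusted p = 0.0152, 0.000654 to 0.227 over the alternatives), lost without healthy 2 (0.227), on the TPM scale (0.143) and with a pseudocount of 0.1 (0.0557), and by -2.98 ± 0.65 to recovered (adjusted p = 0.00223), called under every alternative. Leukocyte markers were higher in the same libraries, with 12 of 12 tested pan-leukocyte, 11 of 13 T and NK, 7 of 7 plasma cell, 7 of 9 neutrophil and 5 of 7 monocyte and macrophage markers called. The B cell and precursor list went both ways, with 4 of 10 tested markers called higher and 4 lower. In recovered 3 the T and NK markers summed to 12.2 FPKM, within the 11.2 to 78.6 of the recovered group. The B cell and precursor markers summed to 972.5 there, against 75 to 222.7 in the other recovered libraries, and the part of any of these in Tcf7 was not tested.

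Lef1, the partner factor, read 2.18, 1.82 and 1.06 FPKM in healthy libraries, 0.185 to 7.72 with a median of 1.04 in pre-leukemic ones, and 0.167, 1.5, 8.86 and 2.07 in recovered ones, overlapping in all comparisons. Its highest value was also in recovered 3. Axin2, a direct target that limits beta-catenin, read 10.4, 2.63 and 11.9 FPKM in healthy libraries, 3.47 to 11.6 with a median of 6.07 in pre-leukemic ones, and 5.31, 19.3, 0 and 0.468 in recovered ones. The change from healthy to pre-leukemic was 0.16 (95% interval -1.86 to 2.17, adjusted p = 0.919), an interval wide enough to hold changes of either sign. From pre-leukemic to recovered it was -1.0 ± 0.74 (adjusted p = 0.299), and 0.0364 without recovered 2.

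Rnf43 and Znrf3 are membrane ubiquitin ligases that remove Frizzled receptors. Rnf43 was listed at 0 in all healthy and all recovered libraries and read 0.317 to 3.27 FPKM, with a median of 1.55, in pre-leukemic ones. The pre-leukemic libraries were all above the others, but Rnf43 passed the filter on low values through them alone, so this is a description with no test. Its values in pre-leukemic 3 and 6, 0.607 and 0.317 FPKM, lay under the level of 3 reads on 1 kb there (0.679 and 0.725). Znrf3 read 0.337, 2.44 and 0.736 FPKM in healthy libraries, 0.14 to 9.98 with a median of 1.83 in pre-leukemic ones, and 0.816, 0, 0.0974 and 0 in recovered ones. Its fall of -1.42 ± 0.54 to recovered (adjusted p = 0.0483) was lost in 17 alternatives (0.0159 to 0.194), among them those without healthy 2 (0.0541) or 3 (0.0506), pre-leukemic 1 (0.0591), 2 (0.0676), 3 (0.0743), 5 (0.0829) or 6 (0.064), or recovered 2 (0.1), 3 (0.0864) or 4 (0.0983).

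**Figure D5:**
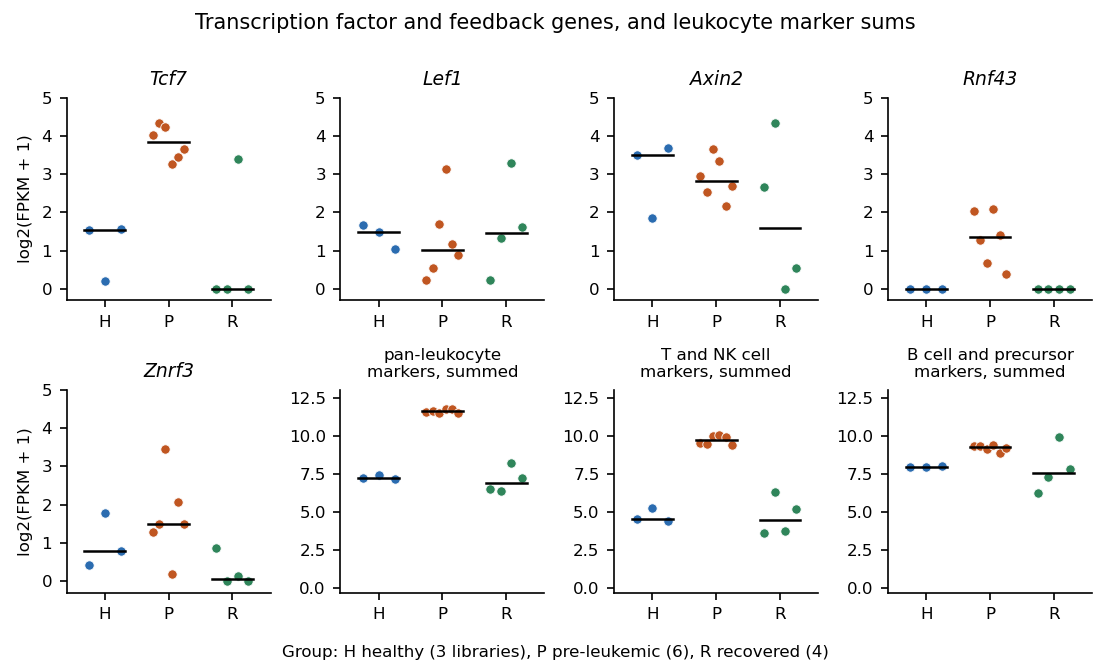
Level of Tcf7, Lef1 and the feedback genes as log2(FPKM + 1) in each library, with groups H (healthy), P (pre-leukemic) and R (recovered), points for libraries and lines for medians. Tcf7 is high in pre-leukemic libraries, and in recovered 3 it stands at 9.49 FPKM. Rnf43 is above 0 in pre-leukemic libraries alone, at low values of 0.317 to 3.27 FPKM.

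Other genes of the pathway, 77 in the table and 64 tested, were counted in the same way. From healthy to pre-leukemic 27 were lower and 2 higher (median -1.27), from pre-leukemic to recovered 31 were higher and 5 lower (median 1.13), and from healthy to recovered 1 was lower and 0 higher (median -0.24, 12 at an unadjusted p under 0.05). Over all genes tested, 13.1% were lower and 14.2% higher in the first comparison, 14.8% higher and 25.1% lower in the second, and 1.99% lower and 0.518% higher in the third, so the single gene of the third is near the background. Sostdc1 and Kremen2 passed the filter through pre-leukemic libraries alone and Amer1 through recovered ones alone, and no test is given for these 3 genes, though the counts hold them. These lists were chosen with results of the data known and are a description.

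Among secreted modulators 4 of 9 were lower and 1 higher in pre-leukemic libraries. Wif1, which binds Wnts directly, fell from 120.8 to 160.3 FPKM in healthy to 0 to 1.5 in pre-leukemic libraries (-6.91 ± 1.11, adjusted p = 0.00035) and was 0 to 61.0 in recovered ones. Cthrc1, Igfbp4 and the R-spondin Rspo2, which strengthens Wnt signals at the receptor, were the other lower genes, at -5.52 ± 1.11 (adjusted p = 0.00195), -2.71 ± 0.48 (adjusted p = 0.000786) and -2.73 ± 0.86 (adjusted p = 0.0296). Igfbp4 reached 218.7 to 382.6 FPKM in recovered libraries, above its 99.5 to 120.7 in healthy ones, a difference that was not called. Sostdc1, an inhibitor that binds Lrp5/6, was listed at 0 in all healthy and recovered libraries and read 3.62 to 17.0 FPKM in pre-leukemic ones.

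Among other receptors 4 of 6 fell and the same 4 rose again in recovered libraries: Ror2, Lgr5, Ryk and Lgr4. Ror2, a receptor of Wnt5a, read 8.59 to 23.4 FPKM in healthy libraries, 0 to 1.03 in pre-leukemic ones and 0 to 25.8 in recovered ones, with a fall of -3.90 ± 0.92 (adjusted p = 0.00581) and a rise of 2.06 ± 0.73 (adjusted p = 0.0357). Lgr4 and Lgr5 are the R-spondin receptors. Kremen2, which pairs with Dkk proteins, read 0.231 to 2.93 FPKM in pre-leukemic libraries, at most 0.181 in healthy ones and was listed at 0 in recovered ones.

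Of 16 tested genes of the cytoplasmic chain 2 fell to pre-leukemic, Gsk3a, a kinase of the destruction complex (-2.17 ± 0.56, adjusted p = 0.00994), and the kinase gene Csnk1d (-1.13 ± 0.40, adjusted p = 0.0487), a share near the 13.1% of all genes. In recovered libraries Gsk3a, Ctnnbip1 and Csnk1d rose and Axin1 fell (-1.52 ± 0.43, adjusted p = 0.0124). Ctnnb1, the gene of beta-catenin, named here after its values were seen, read 49.2 to 71.6 FPKM in healthy libraries, 26.3 to 40.7 in pre-leukemic ones and 8.33 to 50.6 in recovered ones, with no call (adjusted p = 0.299, 0.374 and 0.278).

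Of 13 nuclear factors 6 fell and 1 rose in pre-leukemic libraries. Tcf7l2 and Tcf7l1, relatives of Tcf7, moved opposite to it: Tcf7l2 read 38.2 to 40.1 FPKM in healthy libraries, 1.9 to 7.62 in pre-leukemic ones and 15.2 to 66.4 in recovered ones (-3.00 ± 0.59, adjusted p = 0.00163, then 2.88 ± 0.46, adjusted p = 0.000217), and Tcf7l1 15.8 to 21.3, 0.425 to 5.17 and 10.2 to 22.2 (adjusted p = 0.00418 and 0.0012). The higher gene was the co-repressor Tle4, named after its values were seen, at 0.54 to 4.6, 15.9 to 60.5 and 0.981 to 24.4 FPKM (3.19 ± 0.85, adjusted p = 0.0118). Tle4 and Pygo2 were the 2 that fell to recovered libraries (adjusted p = 0.0236 and 0.0176). Bcl9, a beta-catenin partner, was the one gene of the lists lower in recovered than in healthy libraries, at 0.886 to 3.99 against 5.92 to 31.4 FPKM (-3.01 ± 0.66, adjusted p = 0.0271).

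Of 12 target and feedback genes 9 fell to pre-leukemic and 9 rose to recovered libraries, led by Twist1, Dact3 and Wisp1. Twist1, a factor of mesenchymal cells, read 58.4 to 82.5 FPKM in healthy libraries, 0 to 7.08 in pre-leukemic ones and 26.7 to 79.5 in recovered ones (-5.22 ± 0.77, adjusted p = 0.000191, then 4.65 ± 0.61, adjusted p = 3.74e-05). Of 8 planar polarity genes Daam2 and Prickle2 fell (adjusted p = 0.000162 and 0.0335), and Daam2, Daam1 and Prickle2 rose to recovered libraries (adjusted p = 0.00274, 0.0172 and 0.0412).

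Counted by libraries that do not overlap, 19 of the 32 described genes had every pre-leukemic library below every healthy one and 3 above, where 18.9% and 20.7% of all genes above 0 in at least 3 libraries did. In recovered against pre-leukemic libraries 11 had every library above and 2 below, with backgrounds of 9.52% and 14.5%. In recovered against healthy libraries 6 had every library below, Fzd1, Fzd8, Fzd9, Sfrp2, Wnt5b and Wnt16, and 3 above, Dkk2, Sfrp1 and Lrp5, where 10.2% and 5.93% of all genes did. Both counts lie within a few genes of those shares.

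Of the calls, 9 of 19 from healthy to pre-leukemic (Dkk3, Fzd1, Fzd2, Fzd8, Fzd9, Sfrp2, Sfrp4, Wnt5b and Wnt16), 13 of 19 from pre-leukemic to recovered and 1 of 3 from healthy to recovered (Wnt16) were made under every alternative. The limit set by the filter still holds for Fzd1, Fzd2, Fzd8, Fzd9, Tcf7, Wnt5a, Wnt5b, Wnt10a and Wnt16 among them.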

How the data were processed

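RNA-seq of polyadenylated RNA from 13 libraries was used as 1 table of FPKM values, made by the authors with bcl2fastq, TopHat, Cufflinks 2.2.1 and Cuffnorm on mm10, per the submitters' processing notes. The library-size method and the gene annotation were not given in the sources used here. No counts were used, and depth came from the spacing of low values in 2733 genes with 1 transcript of at least 1500 bp, within 0.06 on the log2 scale. Depth limits cover counting error only. Coordinates are GRCm38.

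The tests used limma 3.58.1 under R 4.3.3, on log2(FPKM + 1), by lmFit and then eBayes with a trend, with all 3 groups in 1 fit of 12 samples (9 residual degrees of freedom, healthy 1 and 3 averaged), on 13118 genes that reached 1 FPKM in 3 or more libraries. The p-values were adjusted over all of these genes by Benjamini-Hochberg and called under 0.05. The steps were tested on simulated data. Summaries and plots used matplotlib 3.10.9, numpy 2.4.6, scipy 1.17.1 and pandas 2.3.3 under Python 3.11.15.

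Genes above 0 in at least 3 libraries were described, those with a group mean of at least 5 FPKM or a call with their values by library (in the pre-leukemic group the lowest, median and highest). Of each other list, all called members were named where there were 5 or fewer, and otherwise the 3 with the smallest p. The genes and lists were chosen with earlier results of these data known. Where a group held values of 0, no mean is given, and no change where a group was all at 0. Alternatives were quantile normalization, the TPM scale, equal sums without immunoglobulin genes, a pseudocount of 0.1, no filter, a filter on the mean (1 FPKM or more), arrayWeights, a fit of only the pair of groups compared, separate healthy libraries, a replicate block and leaving out each library. Ranges of adjusted p in parentheses span these alternatives.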

Additional observations from a re-analysis of the deposited data

Results flagged for a closer look

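In 20 of 58 groups of 4 or 6 libraries, the highest or lowest library stood apart from the rest by Dixon's 95% limit. That limit assumes normally distributed values, and a group with a single value above 0 passes it by construction. The count can therefore not be set against a rate of chance. All 20 were high values, and the values under about 1 FPKM rest on few reads. In pre-leukemic 5 they were Fzd2 at 1.11 FPKM, Fzd7 at 1.93, Fzd9 at 1.38, Wnt5b at 1.04, Wnt16 at 1.25 and Fzd10 at 4.24e-06. In the other pre-leukemic libraries they were Wnt4 at 0.146 (library 1), Lrp5 at 0.0784 and Znrf3 at 9.98 (library 3), Sfrp5 at 0.127 and Lef1 at 7.72 (library 4), and Fzd6 at 1.02 (library 6). In recovered libraries they were Fzd10 at 0.348, Wnt2 at 1.36 and Znrf3 at 0.816 (library 1), Fzd3 at 0.171 (library 2), Fzd4 at 5.92, Tcf7 at 9.49 and Wnt10a at 0.257 (library 3), and Wnt5b at 16.0 (library 4).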

How the results depend on the processing

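No called change of a described gene changed sign under any alternative, and 42 of 1854 recomputed changes changed sign while passing under neither setting. On the TPM scale 0 genes were higher in pre-leukemic than in healthy libraries, against 3, and that scale moved the median change of all genes by -1.28, so that 791 of all genes were higher and 4200 lower, against 1858 and 1725. In recovered against pre-leukemic libraries the median moved by 0.99 (3768 higher and 1213 lower, against 1945 and 3299), and with quantile normalization by 0.33 (2460 and 2424). Equal sums without immunoglobulin genes moved the medians of the 3 comparisons by 0.11, -0.22 and -0.13. With a mean of at least 1 FPKM 2 genes were lower in recovered than in pre-leukemic libraries, against 4, since Rnf43 was not tested and Znrf3 had an adjusted p of 0.0566. In recovered against healthy libraries 1 gene was lower, against 3, with quantile normalization and with a pseudocount of 0.1, and the cause was not tested.

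Leaving out 1 library at a time gave 0 to 3 genes higher and 9 to 17 lower in pre-leukemic against healthy libraries, 13 to 15 higher and 3 to 4 lower in recovered against pre-leukemic, and 0 to 0 higher and 1 to 3 lower in recovered against healthy. The counts of 0 and 9, and a count of 1, came without healthy 2, where a single healthy sample is left and assumed to vary like the other groups, and 785 of all genes were then higher and 931 lower in pre-leukemic libraries. Samples with the same number did not deviate together over the tested genes (10 pairs, correlations of -0.0194 to 0.0337). Such correlations cannot show whether they shared a mouse, a litter or a day. With the replicate block 3 genes were higher and 16 lower in pre-leukemic against healthy libraries, 13 higher and 3 lower in recovered against pre-leukemic, where Lrp6 (adjusted p = 0.0724), Frzb (0.0522) and Znrf3 (0.102) were lost, and 0 and 3 in recovered against healthy. Some values of Rnf43, Lrp5, Wnt2, Wnt4 and other genes near 1 FPKM lay under the level of 3 reads on 1 kb. A longer gene holds more reads at the same FPKM.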
